A study of Mus musculus with 6 samples.

Results

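The genes described here are 10 components of the Notch pathway, measured in skin wounds of mice that carry 1 or both functional copies of Foxo1. They are the 4 receptor genes Notch1, Notch2, Notch3 and Notch4, the ligand genes Jag1, Jag2, Dll1 and Dll4, the effector gene Hes1 and the modifier gene Mfng. They were chosen by gene symbol, as every non-control array probe whose RefSeq accession belongs to one of the 10 genes. This gave 13 probes on 22 spots per array. All 10 genes were among the 16408 genes tested, and all 13 probes passed the filter on dim probes.

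The wounds came from FoxO1 +/- mice and wild-type (WT) mice, with 3 numbered replicates of each. FoxO1 +/- animals carry 1 disrupted and 1 intact copy of Foxo1, which encodes a transcription factor of the forkhead family, and WT animals carry 2 intact copies. The labels give strain C57/BL6 and male sex for every animal of both genotypes, and the sources used here give neither the ages of the animals nor how the Foxo1 allele was made. Full-thickness wounds were punched into shaved back skin, 4 per mouse and 4 mm wide, and on day 3 the wound with its surrounding skin was taken with a 6 mm punch. Each RNA sample was labelled with Cy3 and hybridised to a 1-colour Agilent array, 1 array per replicate, so that 3 FoxO1 +/- arrays were set against 3 WT arrays. Whether each replicate is a separate animal, and whether wounds were pooled, is not given, so the p-values speak only to the spread among the 6 arrays, which may be partly technical.

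Notch receptors are single-pass membrane proteins that are activated when a Jagged or Delta-like ligand on a neighbouring cell binds them. Cleavage by ADAM proteases and then by gamma-secretase frees the intracellular domain, which enters the nucleus, joins the DNA-binding protein Rbpj and switches on Hes and Hey repressor genes. In mouse epidermis the pathway is known for promoting the exit of keratinocytes from the basal layer into differentiation, and in blood vessels for restraining sprouting and for supporting mural cells.

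A level below is the log2 of the processed spot signal minus the 75th percentile of the same array, so that a level of 0 lies at that percentile. Differences are FoxO1 +/- minus WT on this log2 scale, and come with limma standard errors (SE). Different genes were read by different probes, so their levels were not set against each other. In a tissue sample, fewer cells of a type and less RNA per cell cannot be told apart.

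The arrays had 64.3% to 71.3% of spots well above background in the FoxO1 +/- group and 71.3% to 71.9% in the WT group, lowest on FoxO1 +/- replicate 3. Foxo1 itself was checked first. Its brighter probe had levels of 1.54, 1.69 and 1.49 in FoxO1 +/- wounds, against 2.04, 1.81 and 2.32 in WT wounds. Its dimmer probe had levels of 0.38, 0.50 and 0.30 in FoxO1 +/- wounds, against 1.31, 1.04 and 1.51 in WT wounds. Both probes lay lower on all 3 FoxO1 +/- arrays, with differences of -0.48 (SE 0.15) and -0.89 (SE 0.14) and limma adjusted p of 0.547 and 0.190 over all kept probes. Whether either probe matches the disrupted stretch was not analysed here. Across all genes 1 passed a limma adjusted p of 0.05, or 0.00609% of those tested. It was Vmn1r227, a vomeronasal receptor gene named after its values were seen. Basal keratinocyte (6 of 6 listed), fibroblast (6 of 6) and endothelial markers (10 of 10) were well above background on all 6 arrays. Most spots of each array pass this mark, and the skeletal muscle markers (5 of 5) did too, so it says little about the tissue.

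None of the 10 Notch genes passed an adjusted p of 0.05 over all genes. The smallest adjusted p was 0.415, for Notch1 (limma, Benjamini-Hochberg). At an unadjusted p under 0.05 there were 3 of the 10, where 6.25% of all genes reached this mark. Notch1 and Mfng had higher values in FoxO1 +/- wounds, beside 3.43% of all genes, and Jag1 had a lower value, beside 2.83%. The genotypes did not overlap for 4 of the 10, Notch1, Notch4, Dll4 and Mfng, each higher in FoxO1 +/- wounds, beside 11.5% of all genes in either direction and 6.91% in the higher direction. None of the 10 was lower without overlap, beside 4.56% of all genes. Differences were above 0 for 5 of the 10 and for 53.7% of all genes. Of the 13 probes, fitted with all kept probes, none passed an adjusted limma p of 0.05, beside 0.0237% of probes. The brighter Notch1 probe and both Mfng probes had an unadjusted p under 0.05, which is 3 of 13 beside 6.71%, and the genotypes did not overlap for 5 of 13 beside 12.8%. Since these genes were chosen with earlier results of these data known, the counts are a description. The median difference over the 10 genes was -0.01, and it was 0.01 over all genes. The median size of the difference without its sign was 0.14 for the 10 genes and 0.086 for all genes.

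**Figure D1:**
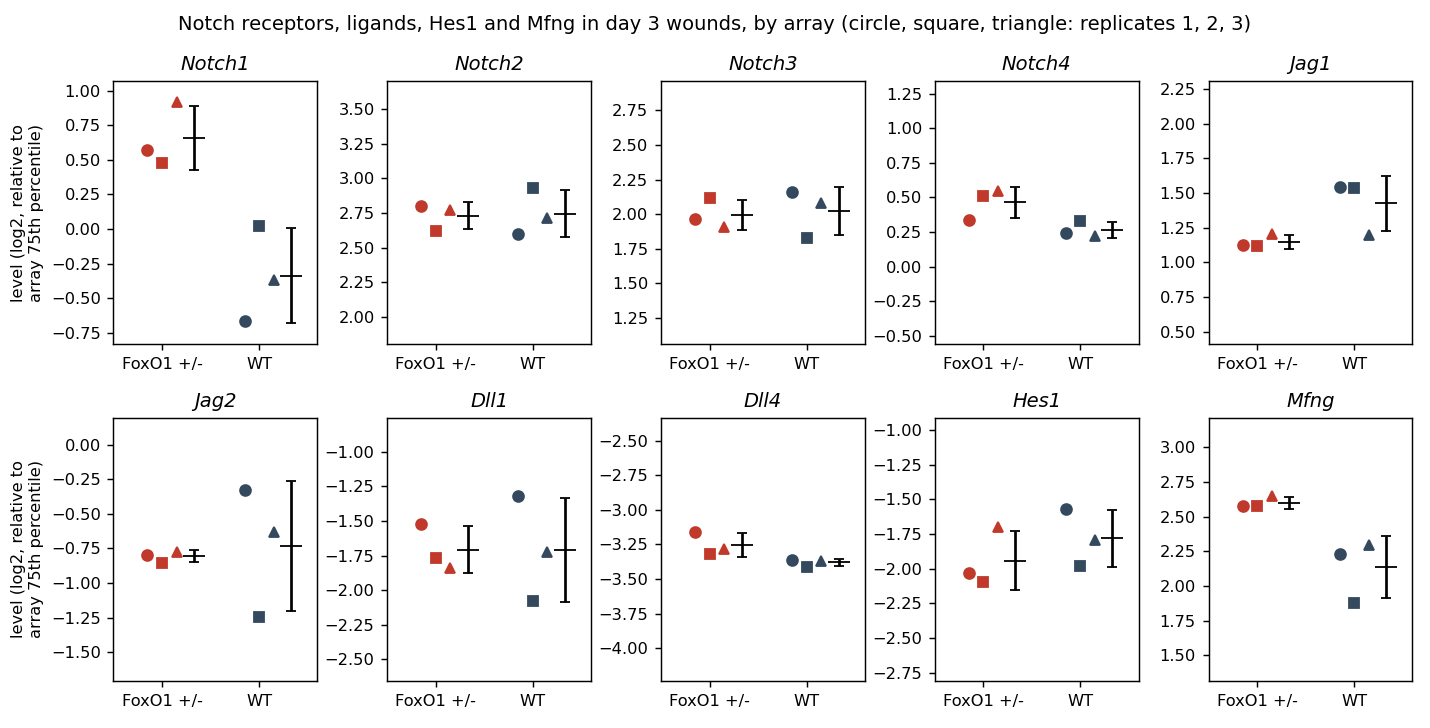
Level of the brightest probe of each of the 10 genes on every array, in log2 units relative to the 75th percentile of the array, with FoxO1 +/- wounds on the left and WT wounds on the right of each panel. Symbols mark replicates, the cross-bar and error bar give the mean and SD of 3 arrays, and every panel spans the same number of log2 units. The genotypes part most widely for Notch1, at 0.48 to 0.92 in FoxO1 +/- and -0.66 to 0.02 in WT wounds.

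The 3 promoters that follow belong to those genes with non-overlapping genotypes for which a RefSeq promoter window was at hand, and show what lies at their starts. Each window runs from 250 bases before to 50 bases after the annotated start in the build GRCm38.p6, written 5′ to 3′ on the strand of the gene. Capitals mark GC boxes (GGGCGG or its reverse complement CCGCCC), the sites that Sp1-type factors are known to bind.
Notch1, minus strand, chr2:26503773-26504072: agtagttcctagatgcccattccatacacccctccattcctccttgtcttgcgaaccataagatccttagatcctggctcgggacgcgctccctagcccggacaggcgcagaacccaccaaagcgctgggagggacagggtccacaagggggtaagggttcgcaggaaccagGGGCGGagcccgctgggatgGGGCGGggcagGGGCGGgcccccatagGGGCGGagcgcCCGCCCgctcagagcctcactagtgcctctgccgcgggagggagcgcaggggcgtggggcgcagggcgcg
Notch4, plus strand, chr17:34564045-34564344: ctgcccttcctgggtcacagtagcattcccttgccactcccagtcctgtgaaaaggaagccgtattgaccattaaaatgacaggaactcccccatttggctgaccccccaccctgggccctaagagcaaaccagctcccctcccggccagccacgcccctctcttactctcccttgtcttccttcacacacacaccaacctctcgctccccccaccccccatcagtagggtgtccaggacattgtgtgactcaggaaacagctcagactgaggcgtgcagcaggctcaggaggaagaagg
Dll4, plus strand, chr2:119325534-119325833: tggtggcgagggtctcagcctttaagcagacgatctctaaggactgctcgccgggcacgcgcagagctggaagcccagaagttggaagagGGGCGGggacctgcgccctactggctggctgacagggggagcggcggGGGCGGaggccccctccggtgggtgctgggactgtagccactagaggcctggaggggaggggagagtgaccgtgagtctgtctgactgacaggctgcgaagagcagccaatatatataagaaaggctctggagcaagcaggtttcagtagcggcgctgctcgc

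The Notch1 window held 5 GC boxes and the Dll4 window 2, with no overlap between them, and the Notch4 window held none. Among genes whose genotypes overlapped, the windows held 7 for Notch2, 5 for Jag2 (2 of which overlap each other), 4 for Notch3 and none for Jag1 and Dll1. In all, 5 of the 9 windows at hand for 8 of the 10 genes held a GC box, beside 35.7% of 32851 mouse promoter windows of the same length. The forkhead motif GTAAACA, the insulin response sequence CAAAACA, the Rbpj motif GTGGGAA and the TATA box TATAAA were searched on both strands of the 9 windows, and none of the 9 held any of them. The shares of all windows holding these motifs were 3.65% for the forkhead motif, 6.28% for the insulin response sequence, 6.38% for the Rbpj motif and 13.6% for the TATA box. A missing match says only that these letters are not in these windows.

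Among the receptors, Notch1 had the widest gap between genotypes. Notch1, the receptor of suprabasal keratinocytes and of many blood cell lineages, had levels of 0.57, 0.48 and 0.92 in FoxO1 +/- wounds, against -0.66, 0.02 and -0.37 in WT wounds on its brighter probe, A_55_P2171897. All 3 FoxO1 +/- arrays lay above all 3 WT arrays. The difference was 0.99 (SE 0.20, 95% interval 0.50 to 1.49), or 1.99 times the WT level, with an unadjusted p of 0.00260 and an adjusted p of 0.415 in limma. The exact two-sided permutation test gave p = 0.1, the smallest that 3 arrays against 3 can give.

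A second Notch1 probe, A_55_P2047168, did not show this gap. Its levels were -5.10, -5.15 and -5.03 in FoxO1 +/- wounds, against -5.10, -5.37 and -5.21 in WT wounds, and the genotypes overlapped. It was well above background on 2 of 3 FoxO1 +/- arrays and 3 of 3 WT arrays, which places it near the background. The difference was 0.13 (SE 0.10, 95% interval -0.11 to 0.37), and in the fit over all 37898 kept probes its adjusted p was 0.885, against 0.300 for the brighter probe (limma). Both probes carry the same accession in the files, and where in the transcript each of them lies was not analysed here. The Notch1 result therefore rests on the brighter probe, and the mean of both probes gave a difference of 0.56.

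Notch2, a receptor found in many cell types of skin, had levels of 2.80, 2.62 and 2.77 in FoxO1 +/- wounds, against 2.60, 2.93 and 2.71 in WT wounds. The genotypes overlapped, and the difference was -0.02 with a 95% interval of -0.28 to 0.25 (SE 0.11, limma adjusted p 0.998). A dimmer Notch2 probe had levels of -3.33, -3.79 and -3.50 in FoxO1 +/- wounds, against -3.89, -2.96 and -3.70 in WT wounds. Both Notch2 probes were highest on WT replicate 2 and lowest on WT replicate 1, so that the spread among WT arrays held the FoxO1 +/- values between its ends. The dimmer probe differed by -0.03 (SE 0.26, limma adjusted p 0.996 over all kept probes).

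Notch3, the receptor of vascular smooth muscle cells and pericytes, had levels of 1.97, 2.12 and 1.91 in FoxO1 +/- wounds, against 2.16, 1.83 and 2.08 in WT wounds. Again the genotypes overlapped, with a difference of -0.03 (SE 0.11, 95% interval -0.30 to 0.25, limma adjusted p 0.995). The list of pericyte and smooth muscle markers, of which 8 of 8 were measured and well above background on all arrays, overlapped too. Its summed level ran from 7.89 to 10.9 on the FoxO1 +/- arrays and from 6.32 to 9.56 on the WT arrays.

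Notch4, a receptor known mainly from endothelial cells, had levels of 0.34, 0.51 and 0.55 in FoxO1 +/- wounds, against 0.24, 0.33 and 0.22 in WT wounds. The genotypes did not overlap, but FoxO1 +/- replicate 1 lay at 0.34 and WT replicate 2 at 0.33. The difference was 0.20 (SE 0.08, 95% interval -0.0048 to 0.41), or 1.15 times the WT level, with an adjusted p of 0.818 in limma and an exact permutation p of 0.1.

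**Figure D2:**
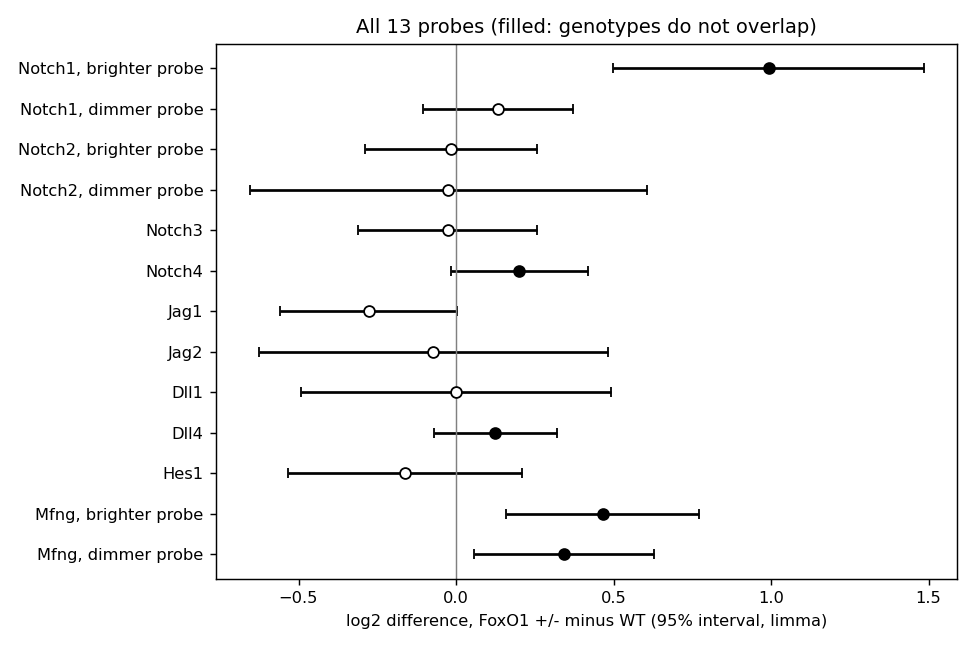
Log2 difference between FoxO1 +/- and WT wounds for all 13 probes of the 10 genes, with 95% intervals from the limma fit over all kept probes and filled points where the genotypes do not overlap. The brighter Notch1 probe lies at 0.99 and the dimmer one at 0.13, whereas the Mfng probes lie at 0.47 and 0.34.

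Among the ligands, Jag1 was the one with lower levels in FoxO1 +/- wounds at an unadjusted p under 0.05, and Dll4 the one whose genotypes did not overlap. Jag1, a ligand of follicle, epidermis and endothelium, had levels of 1.12, 1.11 and 1.20 in FoxO1 +/- wounds, against 1.54, 1.53 and 1.20 in WT wounds. The 3 FoxO1 +/- arrays lay close together, and WT replicate 3 lay among them while WT replicates 1 and 2 lay above. The difference was -0.28 (SE 0.11, 95% interval -0.55 to -0.0038), or 0.825 of the WT level, with an unadjusted p of 0.0478 and an adjusted p of 0.798 in limma. In the fit over all kept probes its unadjusted limma p was 0.0523. The exact permutation p was 0.2. Without WT replicate 3 the difference was -0.39 with an unadjusted limma p of 0.00472, and without WT replicate 1 it was -0.22 with 0.138.

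Dll4, the ligand that endothelial tip cells use to restrain their neighbours, had levels of -3.16, -3.32 and -3.28 in FoxO1 +/- wounds, against -3.36, -3.41 and -3.37 in WT wounds. All 3 FoxO1 +/- arrays lay above all 3 WT arrays by a narrow margin. The difference was 0.12 (SE 0.07, 95% interval -0.06 to 0.30), with an adjusted p of 0.874 in limma. The exact permutation p was 0.1. Without FoxO1 +/- replicate 1, the highest array, the difference was 0.077, and with normexp background correction it was 0.20.

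The endothelial marker list moved in the same direction as Notch4 and Dll4, and against Jag1, also a ligand of endothelium (-0.28). All 10 of its 10 genes were measured, well above background on every array and higher in FoxO1 +/- wounds by group mean, and the median of their differences was 0.18. Its summed level ran from 9.33 to 11.1 on the FoxO1 +/- arrays and from 7.58 to 9.31 on the WT arrays, with ends close together. FoxO1 +/- replicate 1 was the lowest FoxO1 +/- array for this list and for Notch4, but the highest for Dll4. The part of endothelial cells in the Notch4, Dll4 and Jag1 differences was not tested.

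Jag2, a ligand of basal keratinocytes and the follicle, had levels of -0.79, -0.85 and -0.77 in FoxO1 +/- wounds, against -0.32, -1.25 and -0.63 in WT wounds. The FoxO1 +/- arrays lay within a span of 0.08 on the log2 scale, inside the span of 0.92 between the WT arrays. The difference was -0.07 (SE 0.23, 95% interval -0.63 to 0.49, limma adjusted p 0.995). It was -0.33 without WT replicate 2 and 0.13 without WT replicate 1.

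Dll1, a ligand with roles in the interfollicular epidermis and in immune cells, was printed on 10 spots of each array, which shows how far spots within an array differ. Its mean levels were -1.52, -1.77 and -1.84 in FoxO1 +/- wounds, against -1.32, -2.08 and -1.72 in WT wounds. The difference was 0.00 (SE 0.20, 95% interval -0.49 to 0.49, limma adjusted p 0.999), and it was 0.19 without WT replicate 1 and -0.18 without WT replicate 2. Over the unflagged spots of an array the SD was 0.080 to 0.13 on the FoxO1 +/- arrays and 0.059 to 0.073 on the WT arrays. Between arrays the SD was 0.17 in the FoxO1 +/- group and 0.38 in the WT group. On WT replicate 1 the spots ran from -1.41 to -1.26, and on WT replicate 2 from -2.15 to -1.97. Spots of an array share the RNA, labelling and hybridisation, so their SD leaves out the error of those steps. The scanner software marked 1 spot on FoxO1 +/- replicate 1, at -4.72, and 1 on WT replicate 3, at -1.58, as outliers, and both were left out. Over the 319 probes printed 10 times and well above background on all arrays, the median SD was 0.067 over spots and 0.13 over the arrays of a genotype.

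**Figure D3:**
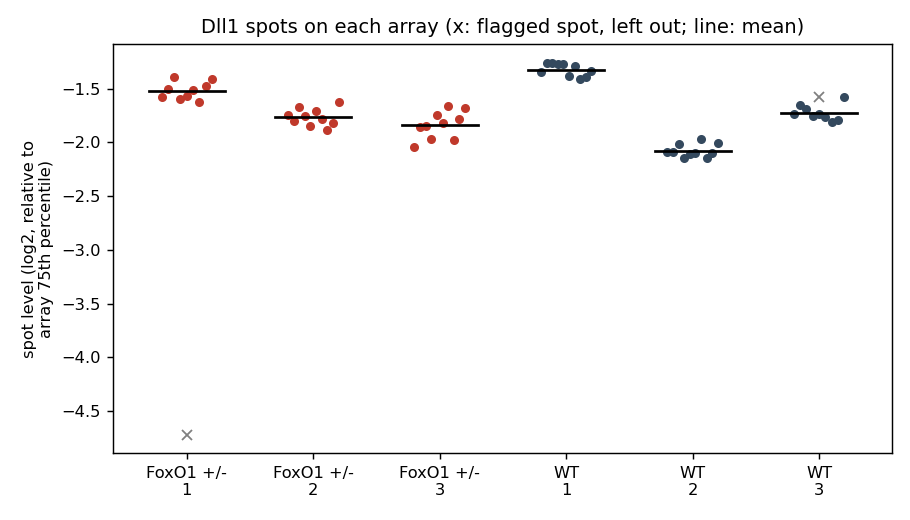
Level of each Dll1 spot on each array in log2 units relative to the 75th percentile of the array, with the mean of the unflagged spots as a line and flagged spots as crosses. Spots of an array lie close together while WT replicates 1 and 2 lie apart, with means of -1.32 and -2.08.

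Hes1, the repressor that Notch signalling switches on, had levels of -2.03, -2.09 and -1.70 in FoxO1 +/- wounds, against -1.57, -1.98 and -1.80 in WT wounds. FoxO1 +/- replicates 1 and 2 lay below all WT arrays, and FoxO1 +/- replicate 3 lay among them, so the genotypes overlapped. The difference was -0.16 (SE 0.15, 95% interval -0.53 to 0.21), with an adjusted p of 0.941 in limma. Leaving out single arrays gave -0.28 without FoxO1 +/- replicate 3 to -0.05 without WT replicate 1.

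Mfng encodes Manic fringe, a glycosyltransferase that adds a sugar to the Notch extracellular domain and shifts its response to ligands. Mfng lay higher on every FoxO1 +/- array than on any WT array, and did so with either probe. For the brighter probe the levels were 2.57, 2.58 and 2.65 in FoxO1 +/- wounds, against 2.23, 1.88 and 2.30 in WT wounds. The difference was 0.47 (SE 0.12, 95% interval 0.17 to 0.77), or 1.38 times the WT level, with an unadjusted p of 0.00890 and an adjusted p of 0.584 in limma. On the dimmer probe the levels were 2.32, 2.25 and 2.24 in FoxO1 +/- wounds, against 1.96, 1.71 and 2.11 in WT wounds. That difference was 0.34 (SE 0.12, limma adjusted p 0.638 over all kept probes). WT replicate 2 was the lowest array on both probes, and without it the brighter probe differed by 0.34.

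Macrophage markers had higher values in FoxO1 +/- wounds as well. Of the 7 listed genes 6 were measured, all well above background on every array, and 5 of the 6 had higher values. Their summed level ran from 24.8 to 25.5 on the FoxO1 +/- arrays and from 24.2 to 24.3 on the WT arrays. Lymphocyte markers, of which 6 of 7 were measured, overlapped at -13.4 to -11.8 on the FoxO1 +/- and -12.9 to -10.1 on the WT arrays. The part of these cells in the Mfng difference was not tested.

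The WT arrays spread more widely than the FoxO1 +/- arrays for 8 of the 10 genes, by the range over arrays, all but Notch4 and Dll4. WT replicate 1 was the highest of the 6 arrays for 5 genes, Notch3, Jag1, Jag2, Dll1 and Hes1. WT replicate 2 was the lowest for 5 genes, Notch3, Jag2, Dll1, Dll4 and Mfng. FoxO1 +/- replicate 3 was the highest for 3 genes, Notch1, Notch4 and Mfng. That array had the lowest share of spots well above background, 64.3%. The matching shares over all genes were not counted, so these counts are not read as a trait of the 10 genes. The hair follicle markers, of which 7 of 10 were measured, stood apart on WT replicate 1 with a mean level of 0.08, against -3.70 to -3.04 on the FoxO1 +/- arrays and -3.03 and -2.47 on the other WT arrays. Their summed level ran from -25.9 to -21.3 on the FoxO1 +/- arrays and from -21.2 to 0.55 on the WT arrays, without overlap but with ends close together. All 7 had lower group means in FoxO1 +/- wounds, and 5 of the 7 were well above background on all arrays. Jag1 was lower too, but it was high on both WT replicates 1 and 2 (1.54 and 1.53), not on replicate 1 alone. Suprabasal keratinocyte markers, of which 6 of 7 were measured, overlapped at summed levels of 23.7 to 26.1 on the FoxO1 +/- and 23.0 to 25.2 on the WT arrays. Sebaceous gland markers (6 of 6 measured, all 6 lower) had summed levels of 2.12 to 4.76 on the FoxO1 +/- and 6.33 to 11.4 on the WT arrays. Adipocyte markers (6 of 6 measured, all 6 higher) had summed levels of 23.9 to 26.0 on the FoxO1 +/- and 17.2 to 23.4 on the WT arrays. Both lists were well above background on every array and did not overlap. The part of follicle, gland, fat and epidermal cells in the levels of the 10 genes was not tested.

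**Figure D4:**
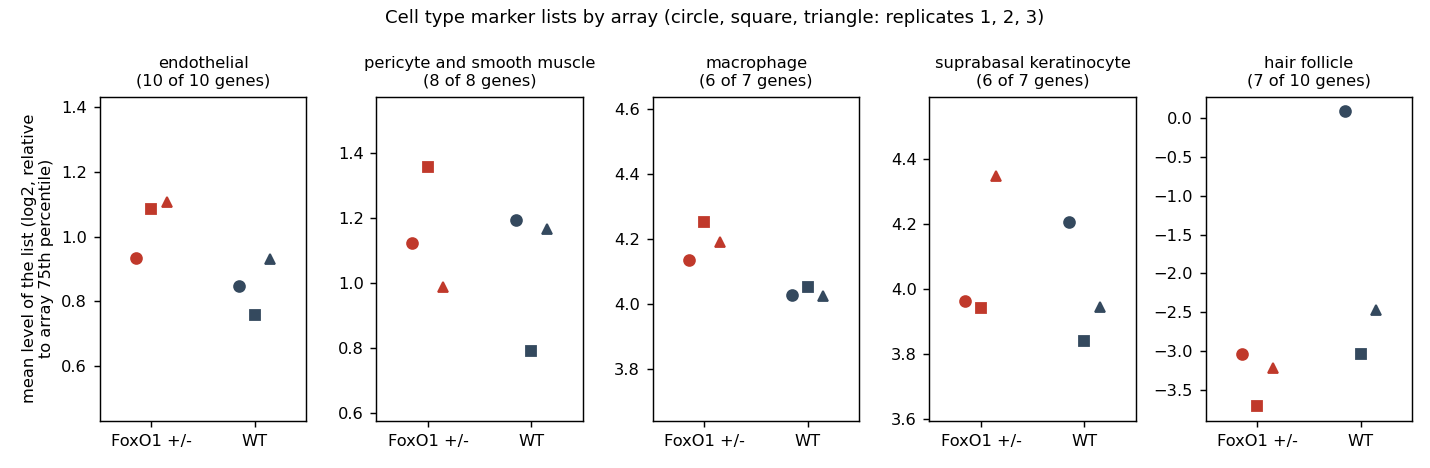
Mean level of 5 cell type marker lists on every array, in log2 units relative to the 75th percentile of the array, with FoxO1 +/- wounds on the left and WT wounds on the right. The endothelial and macrophage lists lie higher and the hair follicle list lower on the FoxO1 +/- arrays without overlap. The endothelial ends nearly meet, at 0.933 on FoxO1 +/- replicate 1 and 0.931 on WT replicate 3. The hair follicle axis is wider than the others, and that list reaches 0.08 on WT replicate 1.

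The slide held the arrays in rows, with the 3 WT arrays and FoxO1 +/- replicate 1 in row 1 and FoxO1 +/- replicates 2 and 3 in row 2. Within row 1, where 1 FoxO1 +/- array is assumed to vary like the WT arrays, the differences were 0.91 (SE 0.29) for Notch1, 0.44 (SE 0.21) for Mfng, -0.30 (SE 0.19) for Jag1, 0.22 (SE 0.12) for Dll4 and 0.07 (SE 0.12) for Notch4. With row as a block the differences were the same and the SE was 0.31 for Notch1, 0.19 for Mfng, 0.18 for Jag1, 0.10 for Dll4 and 0.11 for Notch4. With the block, Notch1 was the 1 gene of the 10 at an unadjusted limma p under 0.05 (0.0308), beside 2.91% of all genes. Row 2 held no WT array, so both fits rest on the same contrast of FoxO1 +/- replicate 1 with the WT arrays. The adjusted p was over 0.99 for all 10 in both.

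The remaining pathway was described with 53 further genes in 6 role lists, from textbook knowledge, of which 47 could be tested. None passed an adjusted p of 0.05 over all genes, and 1, Neurl1b, had an unadjusted limma p under 0.05, or 2.13% beside 6.25% of all genes. The genotypes did not overlap for 6 of the 47, all higher in FoxO1 +/- wounds, or 12.8% beside 6.91% of all genes in that direction and 11.5% in either. Differences were above 0 for 32 and below 0 for 15, or 68.1% above 0 beside 53.7% of all genes. The median was 0.03 beside 0.01 for all genes, and it was 0.015 after quantile normalization and 0.0046 after centring each array on its median, where the all-gene medians were -0.013 and -0.019. The Notch targets Hes5 and Hey2, and Hes3, had no probe well above background on every array of a genotype and were not tested.

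Of the other ligand genes 3 of 4 were tested. Dll3, which encodes a Delta-like protein that inhibits Notch from within the cell, had levels of -1.91, -1.83 and -1.84 in FoxO1 +/- wounds, against -1.94, -2.04 and -2.10 in WT wounds, a difference of 0.17 (SE 0.07, limma adjusted p 0.826). These genotypes did not overlap. Dlk1, an atypical ligand that restrains fat cell formation, differed by 0.58 (SE 0.43) with wide overlap, and Dner, an atypical ligand of the nervous system, by -0.05 (SE 0.20).

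The 4 glycosylation genes had small differences of 0.0013 to 0.16, with a median of 0.06 and none at an unadjusted limma p under 0.05. Pofut1, the enzyme that adds O-fucose to Notch and so makes the substrate of the fringes, had levels of 2.99, 2.96 and 2.88 in FoxO1 +/- wounds, against 2.75, 2.82 and 2.80 in WT wounds. The genotypes did not overlap and the difference was 0.16 (SE 0.07, limma adjusted p 0.826). The other fringe genes overlapped, Rfng with a difference of 0.06 (SE 0.10) and Lfng with 0.05 (SE 0.12).

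Among the cleavage genes, 8 of 10 were tested, with differences of -0.02 to 0.18 and a median of 0.08. The genotypes did not overlap for 2 of the 8, Furin and Psenen, beside 11.5% of all genes in either direction and 6.91% in the higher direction. Psen2, a catalytic subunit of gamma-secretase, differed by 0.18 (SE 0.09), and Furin, the protease that cuts Notch on its way to the surface, by 0.16 (SE 0.09). Psenen, another gamma-secretase subunit, had levels of 4.63, 4.64 and 4.61 in FoxO1 +/- wounds, against 4.55, 4.55 and 4.54 in WT wounds. The difference was 0.08 (SE 0.06, limma adjusted p 0.914).

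All 14 genes of endocytosis and ubiquitin ligases were tested, with 7 above and 7 below 0. Neurl1b, a ubiquitin ligase that acts on Notch ligands, had levels of 5.78, 6.29 and 6.25 in FoxO1 +/- wounds, against 5.76, 5.76 and 5.63 in WT wounds. FoxO1 +/- replicate 1 lay just above the WT arrays and the other FoxO1 +/- arrays well above them. The difference was 0.39 (SE 0.15, limma unadjusted p 0.0412, adjusted p 0.798). Dtx2, a Deltex ligase, differed by 0.16 (SE 0.10) and Mib1, the main ligase of Notch ligands, by 0.10 (SE 0.09), both with overlap.

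The nuclear complex and its corepressors had 12 of 12 genes tested and a median difference of 0.02. Rbpj, the DNA-binding partner of Notch, differed by 0.12 (SE 0.09), the corepressor gene Ctbp1 by 0.08 (SE 0.07) and the corepressor gene Spen by 0.07 (SE 0.08). Only Ctbp1 of these 12 did not overlap, beside 11.5% of all genes. In the list of other Hes and Hey genes and Nrarp, 6 of 9 were tested and none parted the genotypes. Nrarp, a target that feeds back on the Notch complex, had levels of -0.82, -1.08 and -0.63 in FoxO1 +/- wounds, against -0.07, -0.93 and -0.58 in WT wounds. Like Jag2, Dll1 and Hes1, it was highest on WT replicate 1. The difference was -0.32 (SE 0.24, limma adjusted p 0.910), beside 0.09 (SE 0.13) for Hes6 and -0.11 (SE 0.17) for Hey1.

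**Figure D5:**
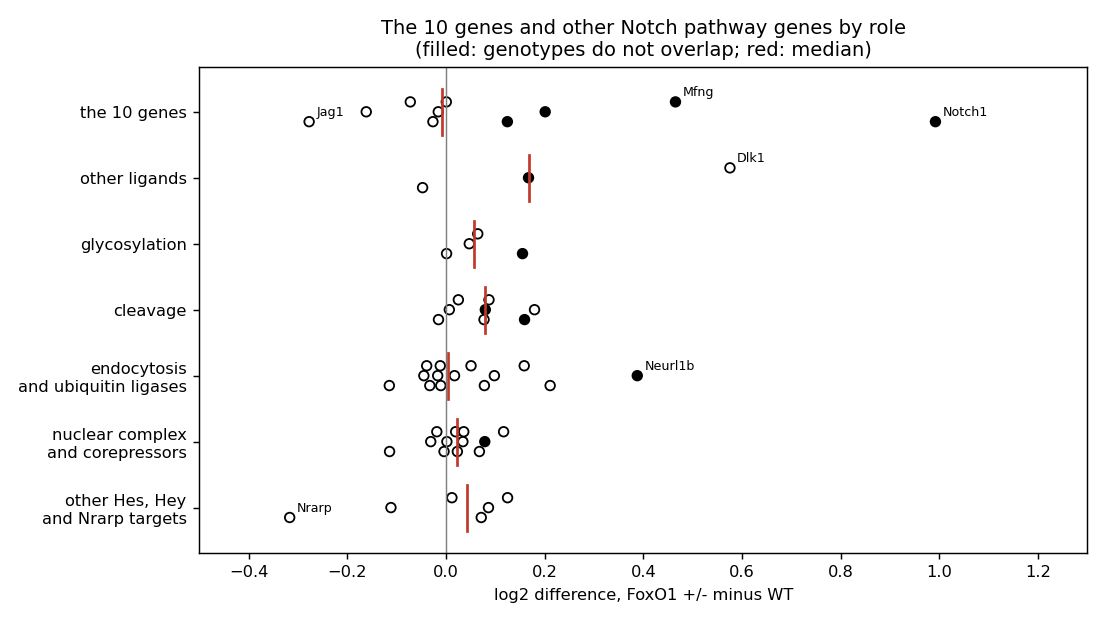
Log2 difference between FoxO1 +/- and WT wounds for the 10 genes and for 47 other Notch pathway genes by role, 1 point per gene, filled where the genotypes do not overlap, with the list median in red. Notch1 at 0.99 and Mfng at 0.47 lie to the right of most points, and the medians of the role lists run from 0.00 to 0.17.

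The genes most like 3 of these in their pattern over the 6 arrays were taken by Pearson correlation of the brightest probes, a description in which all points share 1 slide and 2 genotypes. For Notch1 they were Pnma2 (r = 0.998), Slc16a7 (r = 0.997) and Ifna11 (r = 0.997), with differences of 1.05, 0.98 and 1.03. Each of these ran in the same order of arrays as Notch1, with FoxO1 +/- replicate 3 highest and WT replicate 1 lowest. For Jag1 they were Mcm5, Tollip and Pold2 (r = 0.989, 0.989 and 0.988), with differences of -0.24, -0.06 and -0.11. For Hes1 they were Slc5a8, Tmem54 and Plek2 (r = 0.995, 0.991 and 0.990), with differences of -0.39, -0.12 and -0.27. With 6 arrays many genes reach such values: 239 genes had r above 0.9 with Notch1, 108 with Jag1 and 204 with Hes1.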

How the data were processed

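Per the file headers, the authors extracted 1-colour intensity values with Agilent Feature Extraction 10.7.1.1 (9.1 in the submitters' processing notes). The background and spatial corrections behind the deposited processed signal are not stated in these headers, and its 75th percentile differed between arrays. The deposited value table holds the same intensity values, equal within 0.5%. Here the log2 values of unflagged spots were averaged per probe and scaled to the 75th percentile of each array. RefSeq accessions were matched to symbols of GRCm38.p6, and 26564 of 55645 probes had 1 symbol. Probes well above background on every array of a genotype were kept (37898), and the brightest stood for each of 16408 genes. The FoxO1 +/- minus WT difference was tested with lmFit and eBayes of limma 3.58.1 under R 4.3.3 (two-sided p-values, adjusted over all genes by the Benjamini-Hochberg method), after the script was tested on simulated data. The number of arrays limits the precision. The 10 genes, the lists and the rule for naming genes (the 10, 3 per role list by p, and 3 most like Notch1, Jag1 and Hes1) were chosen with earlier results of these data known. The planned normexp correction needed mean signals, and the median signal was used.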

Additional observations from a re-analysis of the deposited data

How the results depend on the processing

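Under 18 alternatives the 10 genes gave 180 values, of which 166 kept their direction, 14 reversed and 0 passed an adjusted limma p of 0.05. The filter settings, the eBayes settings and the replicate block left every difference of the 10 genes as it was. The mean and the dimmest of the kept probes could not change genes with a single kept probe. The row block and the fit within slide row 1 gave the same differences. The 166 are therefore not separate checks of direction. The smallest adjusted p was 0.133, for Notch1 without WT replicate 2. With 1 array left out at a time, the differences ran from 0.83 to 1.17 for Notch1, -0.090 to 0.075 for Notch2, -0.12 to 0.042 for Notch3, -0.33 to 0.13 for Jag2 and -0.18 to 0.19 for Dll1. Dll1 was also -0.012 after quantile normalization, -0.029 after centring on the median and -0.0032 in the authors' value table, and Notch2 was 0.052 with slide row as a block and within slide row 1. The cause of these reversals was not tested. The dimmest kept probe gave 0.13 for Notch1.

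The genes past an adjusted p of 0.05, 1 in all, were 0 with normexp on the median signal (chosen after seeing the data), with a filter on all 6 arrays, with eBayes trend and robust settings and with the replicate block. They were 2 after quantile normalization, 5 after centring on the median, 3 without a filter, 5 with the dimmest probe, 7 with slide row as a block, 4 within row 1 and 0 to 28 without single arrays, highest without WT replicate 2. The 1026 genes at an unadjusted p under 0.05 became 478 with the row block, 510 within row 1 and 678 to 1493 without single arrays. They split into 562 higher and 464 lower, against 903 and 320 with normexp, 453 and 545 after quantile normalization and 400 and 552 after centring. Among the 10 genes the 3 at this mark became 1 with the dimmest probe or the row block. They were 2 without a filter or with the replicate block and 2 to 3 without single arrays. With normexp, quantile normalization or eBayes trend and robust settings they were 4. The other pathway genes at this mark, 1 in all, were 2 with normexp or eBayes trend and robust settings. They were 0 after quantile normalization or centring and with the replicate or row block, and 0 to 2 without single arrays. The share of all genes at this mark was 6.25% in the main fit, 7.45% with normexp and 6.08% after quantile normalization. It was 5.8% after centring, 5.44% without a filter, 6.23% with the dimmest probe and 6.12% with eBayes trend and robust settings. With the replicate block it was 4.83%, with the row block 2.91% and without single arrays 4.13% to 9.1%. The counts of the 10 genes and of the other pathway genes were not tested against these shares. Without single arrays the median difference was -0.030 to 0.13 for the 10 genes and 0.020 to 0.085 for the other pathway genes. Under the other alternatives it was -0.037 to 0.063 for the 10 genes and 0.0046 to 0.065 for the other pathway genes, lowest for both after centring on the median.

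No pairing by replicate number was seen, as deviations of same-numbered arrays correlated at -0.068, -0.14 and -0.30. With 3 arrays a genotype these values cannot exclude a pairing. With the replicate number as a block, Notch1 differed by 0.99 with an adjusted limma p of 0.786, and 2 of the 10 genes and 793 genes in all had an unadjusted p under 0.05. The planned normexp on the mean signal was not run. Dim signal limits the second Notch1 probe, and 3 arrays a genotype limit every value.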
